A study of Mus musculus with 4 samples.

Results

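The regions described here are the accessible chromatin regions linked to axon guidance ligands and receptors in quiescent satellite cells, the resting stem cells of skeletal muscle. The members are all regions whose deposited gene name begins with Sema, Plxn, Robo, Slit1, Slit2, Slit3, Unc5, Epha, Ephb, Efna or Efnb, or equals Nrp1, Nrp2, Ntn1, Ntn4, Dcc or Neo1. This rule took 59 regions of 35019 in the table, linked to 49 genes. It also took Unc50, whose name shares the first letters of the netrin receptors but which is not one of them. Its promoter region held 133 and 229 in mdx, against 193 and 204 in wild type, and is left out of all counts below, which leaves 58 regions of 48 genes. Their accessibility was measured by ATAC-seq, in which the Tn5 transposase inserts adapters into open chromatin of flow-sorted cells. The mdx mice carry a dystrophin mutation and are the classical mouse model of Duchenne muscular dystrophy. There were 2 mdx libraries and 2 wild type libraries, and the labels give no strain, age, sex or treatment. The design text speaks of 3 mice per condition, but nothing ties a library to an animal, so p-values reflect only how far these libraries vary, and that variation may be technical.

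Semaphorins, ephrins, Slits and netrins are cues that steer growing axons and migrating cells. Semaphorins bind plexins, and most secreted class 3 semaphorins need a neuropilin as co-receptor. Ephrins bind Eph receptor tyrosine kinases and can signal back into their own cell, Slits bind Robo receptors, and netrins bind Dcc, Neo1 and the Unc5 receptors. In adult muscle, satellite cells are known to secrete Sema3a once activated, and ephrins are known to affect their motility.

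Of the 58 axon guidance regions, 1 rose and 2 fell in mdx satellite cells. The promoter region of Sema3c, a secreted semaphorin, was 1.96-fold higher in mdx, and the promoter regions of the semaphorin receptors Plxnc1 and Plxnd1 were 2.78-fold and 1.82-fold lower. The other 55 regions did not pass the test, which was limma on log2 values with an adjusted p under 0.05. Of all 33161 tested regions, promoter and distal together, 4.18% passed. At 5.17%, 3 of 58 is near this background and is not a result about the gene group. All 3 are promoter regions, 7.14% of the 42 among the members. Of all tested promoters 2.42% passed, 0.691% as higher and 1.73% as lower. With 3 calls, this is not a result about the member promoters either. Of 16 distal member regions 0 passed, where 3.20% of all tested distal regions with a linked gene did. A region was tested if it reached a value of 10 in at least 2 libraries, and all 59 regions of the rule did. The number of members that passed ran from 0 with no filter on low values (limma, 11 at an unadjusted p under 0.05) to 8 with crossed pairing of the replicate numbers, chosen after seeing the data, and was 7 when cyclic loess or equal distal medians replaced the deposited scaling. With any 1 of the 4 libraries left out, 0 regions passed anywhere (limma), with 5 to 8 members at an unadjusted p under 0.05.

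The promoters of the regions that passed are shown because they carry these calls, with that of Unc5c, a netrin receptor whose region came nearest to passing among the others. The sequences are the 250 bases upstream of the RefSeq start (GRCm38.p6, the same assembly as mm10), read along the gene's strand, and all 4 windows lie wholly inside the accessible region. They are chr5:17574566-17574815 on the plus strand for Sema3c, chr10:94944846-94945095 on the minus strand for Plxnc1, chr6:115995006-115995255 on the minus strand for Plxnd1 and chr3:141465314-141465563 on the plus strand for Unc5c. Capitals mark each match to CANNTG, the E-box read by myogenic factors such as Myod1, searched on both strands.
Sema3c: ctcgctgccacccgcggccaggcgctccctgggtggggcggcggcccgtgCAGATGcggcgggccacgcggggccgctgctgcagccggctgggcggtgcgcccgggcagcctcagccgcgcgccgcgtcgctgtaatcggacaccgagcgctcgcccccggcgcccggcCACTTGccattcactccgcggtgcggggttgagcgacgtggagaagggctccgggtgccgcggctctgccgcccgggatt
Plxnc1: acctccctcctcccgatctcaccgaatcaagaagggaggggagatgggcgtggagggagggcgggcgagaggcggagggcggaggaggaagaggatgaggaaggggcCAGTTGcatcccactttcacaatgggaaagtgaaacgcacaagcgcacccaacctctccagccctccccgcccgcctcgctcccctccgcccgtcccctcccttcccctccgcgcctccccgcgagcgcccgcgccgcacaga
Plxnd1: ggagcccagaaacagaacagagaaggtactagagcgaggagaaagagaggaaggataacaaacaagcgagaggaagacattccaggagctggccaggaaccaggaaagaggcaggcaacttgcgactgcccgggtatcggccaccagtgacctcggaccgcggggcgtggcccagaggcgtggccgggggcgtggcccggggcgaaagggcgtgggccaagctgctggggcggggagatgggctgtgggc
Unc5c: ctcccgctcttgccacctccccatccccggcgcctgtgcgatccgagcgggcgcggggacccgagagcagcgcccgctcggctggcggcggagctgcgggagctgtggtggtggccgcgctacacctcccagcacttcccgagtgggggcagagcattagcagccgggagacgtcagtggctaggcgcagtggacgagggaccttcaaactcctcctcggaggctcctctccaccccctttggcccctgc
The Sema3c window holds 2 E-box matches, CAGATG and CACTTG, the Plxnc1 window holds 1, CAGTTG, and those of Plxnd1 and Unc5c hold 0. Across 32851 RefSeq windows of the same length, 66.2% hold a CANNTG match. The GC box GGGCGG, also searched on both strands, matched 3 times in the Sema3c window, 4 times for Plxnc1, 1 time for Plxnd1 and 0 times for Unc5c, and 32.7% of all windows hold it. The windows hold 39 CpG dinucleotides for Sema3c, 22 for Plxnc1, 16 for Plxnd1 and 23 for Unc5c, against a median of 6 over all windows. RefSeq windows were found for 40 of the 48 genes, 48 windows in all. Their median was 17 CpG, 77.1% of them held GGGCGG and 39.6% held CANNTG. These matches describe the letters of the windows and do not show binding.

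Of the 58 regions, 42 were promoter regions, meaning that they overlap a window of 1 kb to each side of the deposited gene start, and 16 were distal. The values are used as deposited and are read here as scaled reads per region, a unit inferred from the values themselves. The reads behind them, estimated from the values, numbered about 3210000 and 3610000 in mdx replicates 1 and 2, and about 3690000 and 8170000 in wild type replicates 1 and 2. The share of nuclear scaled reads in promoter regions was 52.8% and 57.2% in mdx libraries, against 64.2% and 61.1% in wild type libraries, and so moved with the group. A log2 difference below is the fitted log2 fold change of the scaled reads plus 1, mdx minus wild type. All tested promoters together had a median log2 difference of -0.25 and all tested distal regions one of 0.19. The part of this shift in any single value below was not tested. The axon guidance promoters had a median of -0.16 and the axon guidance distal regions one of 0.16. In bulk cells, fewer cells with an open site and less opening per cell cannot be told apart.

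**Figure D1:**
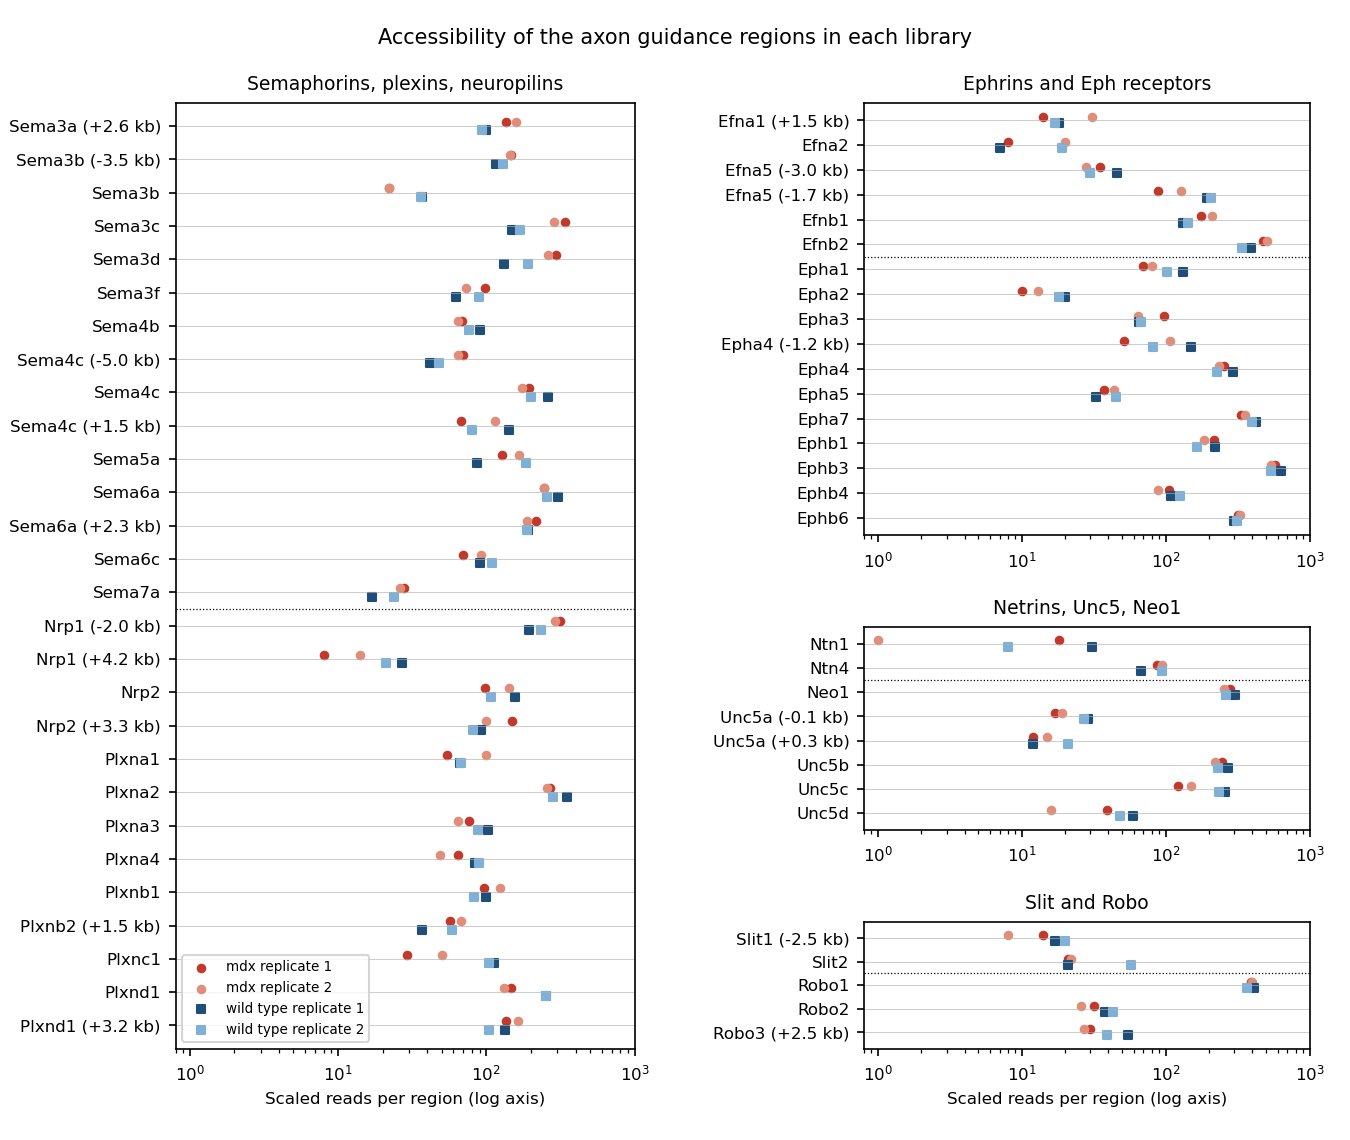
Scaled reads per region (horizontal log axis) in each of the 4 libraries for the 58 regions, by family, with ligands above and receptors below the dotted line. Numbers in parentheses give the distance of a region's centre from the gene start. In Sema3c both mdx libraries lie above both wild type libraries, and in Plxnc1 and Plxnd1 both lie below.

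Among the class 3 semaphorins, the secreted ligands, Sema3c rose in mdx. Its region, at chr5:17574379-17574907, held 341 and 285 scaled reads in mdx libraries and 148 and 170 in wild type libraries. Both mdx libraries lay above both wild type libraries, and the difference was larger than the spread within either group. The means were 313.0 ± 39.6 in mdx and 159.0 ± 15.6 in wild type (SD, n = 2 each), which gave a log2 difference of 0.97 with SE 0.21 (limma, adjusted p = 0.0275). The centre of this region lies 362 bp inside the gene by the deposited start at 17574281, whereas the RefSeq start at 17574816 falls inside the region. The call ended with distal medians set equal (0.63, limma, adjusted p = 0.0837), which moved the median of all regions to -0.35. It also ended with no filter on low values (limma, adjusted p = 0.0537), and with 1 library left out at a time the value ran from 0.84 to 1.10.

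Sema3d and Sema3a, the 2 other class 3 semaphorins with a region on chromosome 5, were also higher in both mdx libraries, but neither passed. Both mdx libraries lay above both wild type libraries in 10.4% of all tested promoters, and in 7721 of the 21869 tested distal regions. The Sema3d promoter, at chr5:12383186-12383818, held 294 and 261 scaled reads in mdx, against 131 and 190 in wild type, which gave a log2 difference of 0.81 with SE 0.23 (limma, adjusted p = 0.0686). It passed as higher with cyclic loess (0.88, limma, adjusted p = 0.0259) and with promoter medians set equal (1.01, limma, adjusted p = 0.0376), but with distal medians set equal the value was 0.47 (limma, adjusted p = 0.21). The Sema3a region is distal and lies 2640 bp inside the gene. It held 135 and 158 scaled reads in mdx, against 100 and 94 in wild type. The log2 difference was 0.59 (limma, adjusted p = 0.183), where the median of all tested distal regions was 0.19. Sema3a is the class 3 semaphorin best known from muscle, where it affects nerve growth.

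Sema3b and Sema3f, which lie near each other on chromosome 9, did not pass. The Sema3b promoter held 22 and 22 scaled reads in mdx, against 37 and 36 in wild type, a low level at which counting error is large (log2 difference -0.71, 95% confidence interval -1.60 to 0.19). A stronger region 3526 bp upstream of Sema3b held 146 and 145 in mdx, against 117 and 130 in wild type, which gave a log2 difference of 0.24. The promoter and the upstream region of Sema3b thus lay on opposite sides of 0, with no overlap between groups in either. Of all tested regions, 52.7% had groups that did not overlap. The Sema3f promoter overlapped, with 98 and 73 in mdx, against 62 and 89 in wild type.

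The semaphorins of classes 4 to 7, which are membrane-bound, had 9 regions of 6 genes, and 0 passed (limma). Their log2 differences ran from -0.32 to 0.57, with 0 at an unadjusted p under 0.05. Sema6a, a transmembrane semaphorin that binds A-type plexins, had the most accessible promoter per length of the whole semaphorin family. It held 246 and 247 scaled reads in mdx, against 307 and 256 in wild type, 647 scaled reads per kb on average. Its log2 difference was -0.18 (95% confidence interval -0.61 to 0.24), and 0.01 with promoter medians set equal. Sema4c had 3 linked regions. Its region 5011 bp upstream held 70 and 64 in mdx, against 42 and 48 in wild type (log2 difference 0.57, limma, adjusted p = 0.323). Its promoter region held 193 and 174 in mdx, against 259 and 200 in wild type (log2 difference -0.31, limma, adjusted p = 0.429), and its region 1536 bp inside the gene overlapped between groups. The promoters of Sema4b, Sema5a and Sema6c were at -0.32, 0.20 and -0.31, and a Sema6a region 2286 bp inside the gene was at 0.09.

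**Figure D2:**
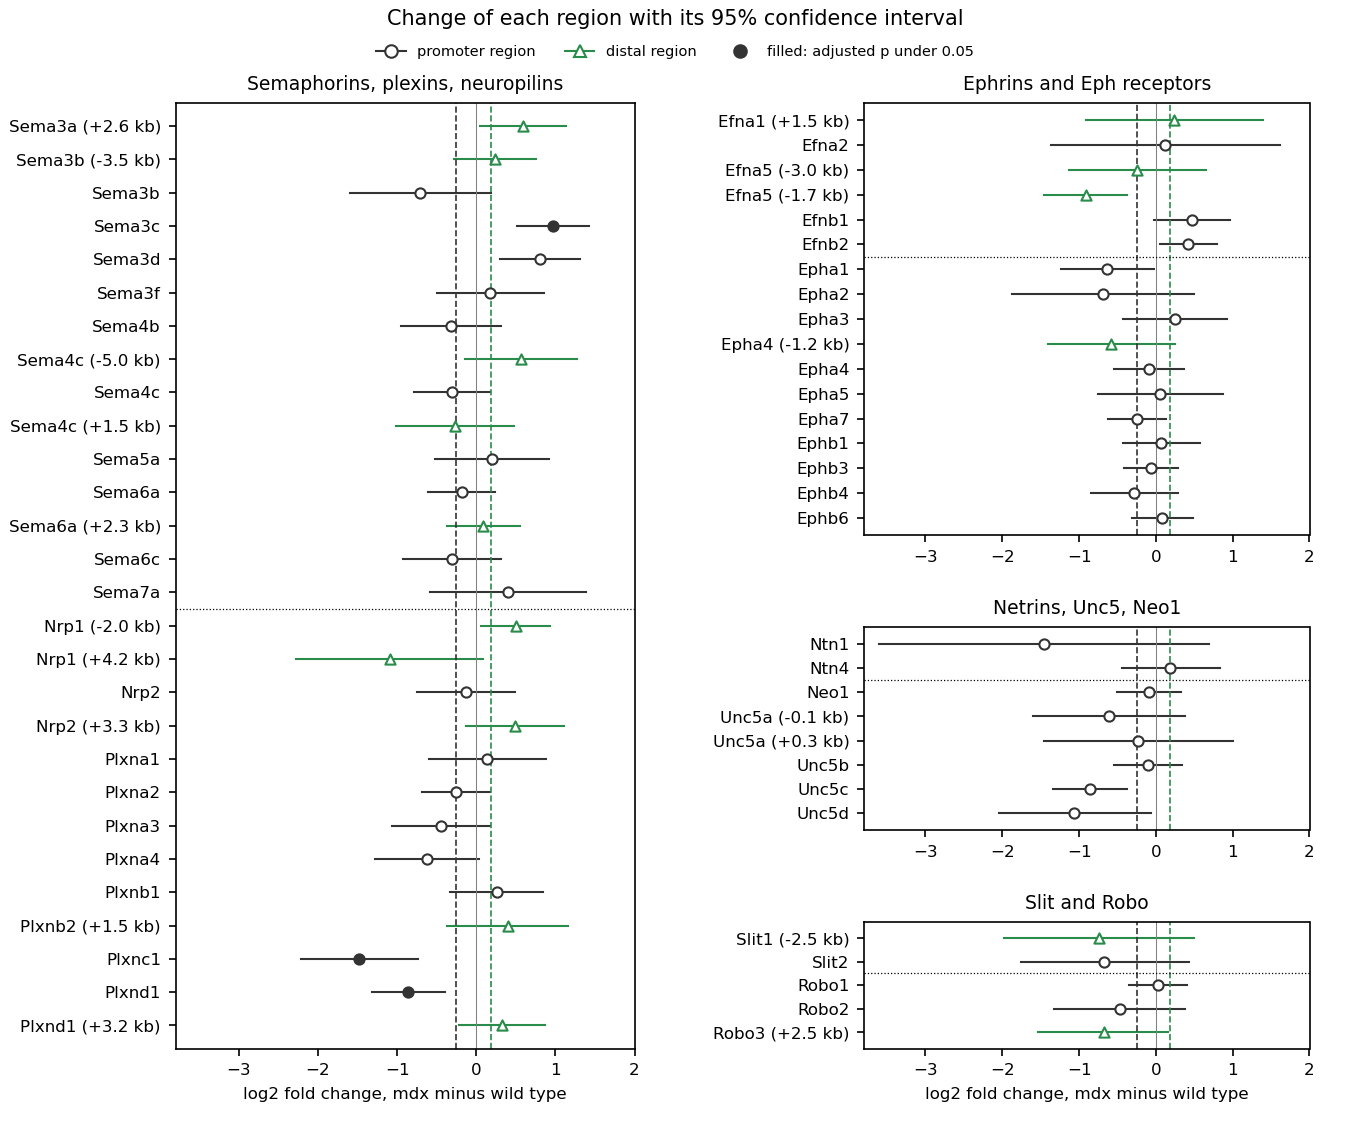
Log2 difference between mdx and wild type (mdx minus wild type, horizontal axis), with 95% confidence intervals from limma for the 58 regions, by family. Dashed lines mark the medians of all tested promoters (-0.25) and of all tested distal regions (0.19). The filled symbols are Sema3c at 0.97, Plxnd1 at -0.86 and Plxnc1 at -1.48.

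Among the receptors of semaphorins, 2 of 13 regions fell in mdx and 0 rose. Both were plexin promoters, among 8 promoter regions of these receptors, where 1.73% of all tested promoters fell. With 2 calls, this is not a result about the receptors as a group. Plxnc1, the receptor of Sema7a, held 29 and 50 scaled reads in mdx, against 112 and 104 in wild type at chr10:94944371-94945223. Both mdx libraries lay far below both wild type libraries. The means were 39.5 ± 14.8 in mdx and 108.0 ± 5.7 in wild type (SD, n = 2 each), which gave a log2 difference of -1.48 with SE 0.34 (limma, adjusted p = 0.0345). Its promoter is a weak one, lying at the 8.4th percentile of all tested promoters by scaled reads per kb, and its value ran from -1.86 to -1.09 with 1 library left out at a time. The Plxnc1 call ended with no filter (limma, adjusted p = 0.0673). Its ligand Sema7a had a weak promoter too, with 28 and 26 scaled reads in mdx, against 17 and 24 in wild type (log2 difference 0.40, limma, adjusted p = 0.642).

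Plxnd1, a receptor of Sema3e that is known from vessel patterning, held 146 and 132 scaled reads in mdx, against 254 and 252 in wild type at its promoter, chr6:115994767-115995362. The libraries of each group were close together and far from the other group. The means were 139.0 ± 9.9 in mdx and 253.0 ± 1.4 in wild type (SD, n = 2 each), which gave a log2 difference of -0.86 with SE 0.21 (limma, adjusted p = 0.0431). A second Plxnd1 region, 3190 bp inside the gene, held 135 and 164 in mdx, against 134 and 105 in wild type, which gave a log2 difference of 0.32 (limma, adjusted p = 0.475). With 1 library left out at a time the promoter value ran from -0.93 to -0.79. The call at the promoter ended with promoter medians set equal (-0.66, limma, adjusted p = 0.092), with a pseudocount of 0.1 (limma, adjusted p = 0.0539) and with no filter (limma, adjusted p = 0.0677). The ligand Sema3e had no linked region.

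The A-type plexins, which pair with neuropilins to receive class 3 semaphorins, did not pass. The Plxna2 promoter held 271 and 256 scaled reads in mdx, against 352 and 281 in wild type, which gave a log2 difference of -0.25, equal to the median of all promoters. Plxna3 was at -0.44 and Plxna4 at -0.62 (limma, adjusted p = 0.383 and 0.249). The Plxna1 promoter held 54 and 99 in mdx, against 66 and 67 in wild type, so the mdx libraries lay on either side of wild type. Its sign turned with distal medians set equal and when mdx replicate 2 was left out. Plxnb1, a receptor of Sema4d, had a log2 difference of 0.26 (95% confidence interval -0.33 to 0.85), and a Plxnb2 region 1474 bp inside the gene was at 0.40 (-0.37 to 1.16).

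The neuropilins, co-receptors of class 3 semaphorins, had 4 regions, 3 of them distal. The Nrp1 region 2023 bp upstream of the start was strong, with 316 and 290 scaled reads in mdx, against 195 and 235 in wild type, which gave a log2 difference of 0.50 (limma, adjusted p = 0.166). A narrow Nrp1 region, 118 bp wide and 4154 bp inside the gene, held 8 and 14 in mdx, against 27 and 21 in wild type. These low values gave a log2 difference of -1.09 (limma, adjusted p = 0.256). The Nrp1 regions lay on opposite sides of 0, and neither passed. The Nrp2 promoter overlapped between groups, with 98 and 143 in mdx, against 156 and 108 in wild type. The Nrp2 region 3336 bp inside the gene held 149 and 99 in mdx, against 92 and 81 in wild type (log2 difference 0.49, limma, adjusted p = 0.331).

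**Figure D3:**
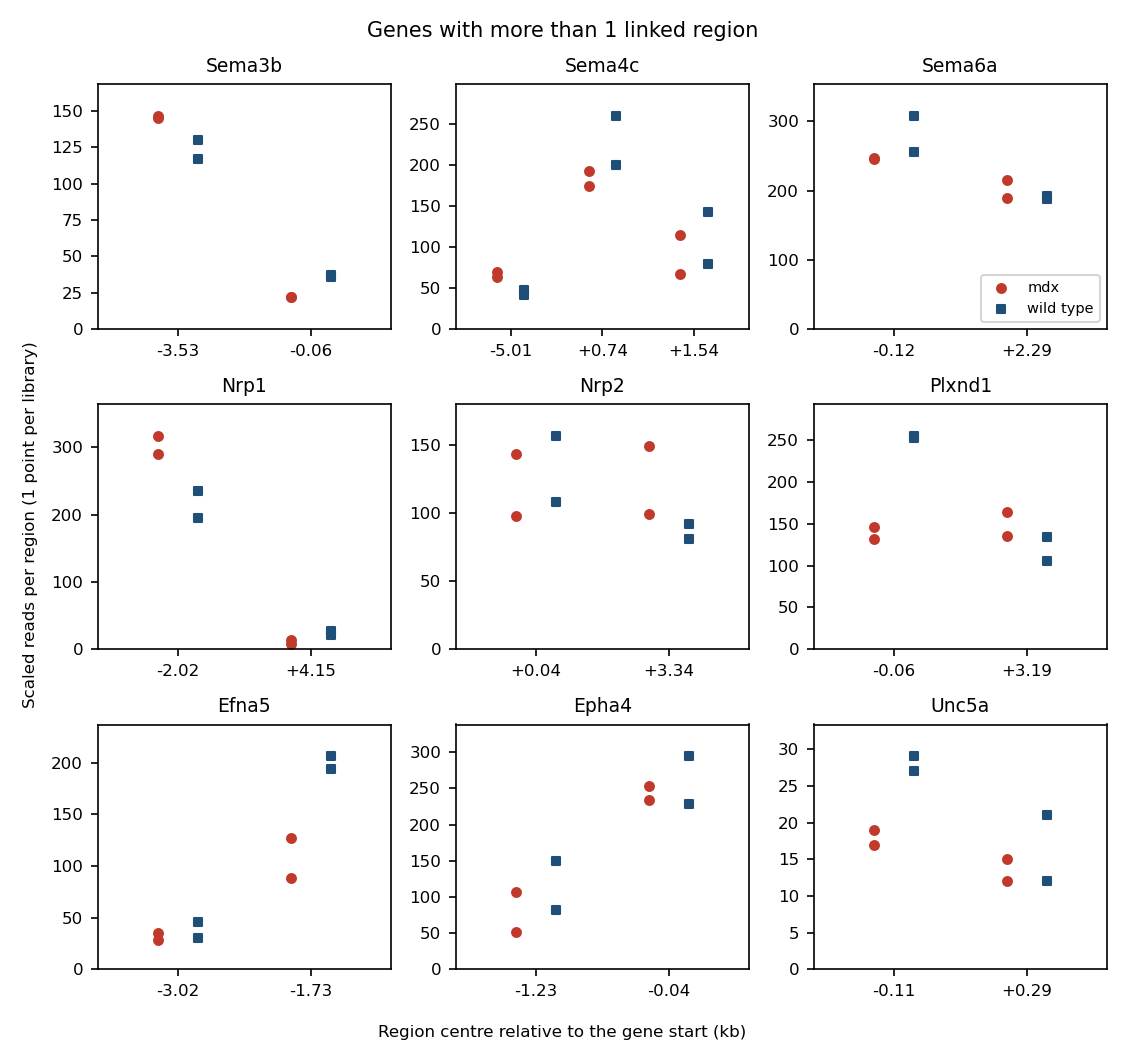
Scaled reads (vertical axes, from 0) in the 9 genes with more than 1 linked region, by the distance of the region's centre from the gene start (horizontal axes, kb, in order and not to scale), with 1 point per library. In Plxnd1 the groups separate at the promoter with mdx lower. At the region 3190 bp inside the gene, which did not pass, they nearly touch, with 135 and 164 in mdx, against 134 and 105 in wild type.

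The ephrins and Eph receptors had 17 regions of 15 genes, and 0 rose and 0 fell (limma), with 3 at an unadjusted p under 0.05. Per length, 2 Eph receptor promoters were the most accessible of the axon guidance promoters. Epha7 held 336 and 359 scaled reads in mdx, against 423 and 400 in wild type, or 746 scaled reads per kb on average, at the 94.5th percentile of all tested promoters. Ephb3 held 579 and 544 in mdx, against 634 and 538 in wild type, or 719 per kb. The log2 difference was -0.24 for Epha7 (95% confidence interval -0.62 to 0.13) and -0.06 for Ephb3 (-0.41 to 0.29). The Ephb1 promoter held 217 and 185 in mdx, against 221 and 165 in wild type, and the Epha3 promoter 97 and 64 in mdx, against 65 and 67 in wild type, with overlap in both. Epha1 held 70 and 80 in mdx, against 132 and 102 in wild type (log2 difference -0.63, limma, adjusted p = 0.2), with no overlap. Both mdx libraries lay below both wild type libraries in 43.5% of all tested promoters. The other Eph receptor regions, of Epha2, Epha4, Epha5, Ephb4 and Ephb6, ran from -0.69 for Epha2, which held no more than 20 scaled reads in any library, to 0.08 for Ephb6.

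Efnb1 and Efnb2, B-type ephrins that are transmembrane ligands of EphB receptors, lay above wild type in both mdx libraries without passing. They were named after their values were seen, and 10.4% of all tested promoters likewise had both mdx libraries above both wild type libraries. Efnb2 held 473 and 503 scaled reads in mdx, against 390 and 339 in wild type, which gave a log2 difference of 0.42 (95% confidence interval 0.05 to 0.80, limma, adjusted p = 0.17). It passed as higher with promoter medians set equal (0.62, limma, adjusted p = 0.0374) and with cyclic loess (0.61, limma, adjusted p = 0.0265), but with distal medians set equal the value was 0.09 (limma, adjusted p = 0.827). Efnb1, on the X chromosome, held 177 and 209 in mdx, against 133 and 144 in wild type, which gave a log2 difference of 0.47 (limma, adjusted p = 0.237). The A-type ligand Efna5, which is tethered to the membrane by a lipid anchor, lay the other way. Its region 1728 bp upstream of the start held 88 and 127 in mdx, against 194 and 206 in wild type, which gave a log2 difference of -0.91 with SE 0.25 (limma, adjusted p = 0.0608). With equal totals (-0.93, limma, adjusted p = 0.0491) and with cyclic loess (-0.90, limma, adjusted p = 0.0351) it passed as lower, and with promoter medians set equal it did not (-0.71, limma, adjusted p = 0.106). A narrower Efna5 region 3021 bp upstream, 112 bp wide against 520 bp, overlapped, with 35 and 28 in mdx, against 46 and 30 in wild type. Efna1 and Efna2, also lipid-anchored, had regions with low values that overlapped, at 0.24 and 0.12.

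The netrin family had 8 regions of 7 genes, all of them promoter regions, and 0 passed (limma), with 2 at an unadjusted p under 0.05. Of the 6 receptor regions, all 6 had log2 differences below 0, where 74.6% of all tested promoters did, but those of Unc5b and Neo1 turned with promoter medians set equal. Unc5c, a netrin receptor that mediates repulsion, held 122 and 151 scaled reads in mdx, against 258 and 236 in wild type at chr3:141464821-141465643. Both mdx libraries lay well below both wild type libraries, with means of 136.5 ± 20.5 in mdx and 247.0 ± 15.6 in wild type (SD, n = 2 each). The log2 difference was -0.86 with SE 0.22, just outside the threshold (limma, adjusted p = 0.0504), and it passed with equal totals (limma, adjusted p = 0.0371) but not with promoter medians set equal (-0.66, limma, adjusted p = 0.0881). The Unc5d promoter held 39 and 16 in mdx, against 59 and 48 in wild type (log2 difference -1.06, limma, adjusted p = 0.186). Both its mdx libraries lay below wild type but were far apart. Unc5a had 2 weak promoter regions, at -0.61 and -0.23, with no more than 29 scaled reads in any library. Unc5b, known from blood vessels, held 245 and 220 in mdx, against 270 and 231 in wild type, which gave a log2 difference of -0.10 (95% confidence interval -0.55 to 0.34). Neo1, a receptor for netrins and for repulsive guidance molecules, held 278 and 256 in mdx, against 305 and 264 in wild type, which gave a log2 difference of -0.09 (-0.51 to 0.33). In both genes the groups overlapped. Of the netrin ligands, Ntn1 had low values, with 18 and 1 scaled reads in mdx, against 31 and 8 in wild type (log2 difference -1.46, limma, adjusted p = 0.407), and its libraries spread too widely to give a direction. Ntn4 held 87 and 95 in mdx, against 67 and 94 in wild type, with overlap.

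The Slit and Robo regions were few, 5 regions of 5 genes, and 0 passed (limma), with 0 at an unadjusted p under 0.05. Robo1 was the strongest, with 391 and 401 scaled reads in mdx, against 409 and 369 in wild type, which gave a log2 difference of 0.03 (95% confidence interval -0.35 to 0.40). Its promoter, at chr16:72662980-72663814, lay at the 83.8th percentile of all tested promoters by scaled reads per kb. Robo2 held 32 and 26 in mdx, against 38 and 43 in wild type, which gave a log2 difference of -0.47 (limma, adjusted p = 0.505). Slit2 held 21 and 22 in mdx, against 21 and 57 in wild type, so wild type replicate 2 alone stood above the rest, and the value of -0.67 became 0.03 without it. The distal regions of Slit1 and Robo3 were at -0.74 and -0.68 (limma, adjusted p = 0.471 and 0.319), at low values.

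Grouped by role, 1 ligand region rose and 0 fell among 25, and 2 receptor regions fell and 0 rose among 33. These are 4% and 6.06%, against 4.18% of all tested regions that passed. Over both region classes the counts are near the background. All 3 are promoter regions, 6.25% of the ligand promoters and 7.69% of the receptor promoters, against 2.42% of all tested promoters. With so few calls, this is not a result about either role. The ligand promoters had a median log2 difference of 0.15 over 16 regions and the receptor promoters one of -0.24 over 26, against -0.25 for all tested promoters. Promoters with both mdx libraries above both wild type libraries numbered 5 of 16 ligands and 1 of 26 receptors, where 10.4% of all tested promoters did so. Those with both mdx libraries below numbered 4 of 16 ligands and 13 of 26 receptors, where 43.5% of all did. The difference between ligands and receptors was not tested.

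Regions with no deposited gene also lie inside these genes. Of 82 such tested regions in 30 of the member genes, 3 rose and 0 fell. This is 3.66%, against 4.96% that rose among all 18804 tested regions with no deposited gene. A region inside Robo1 at chr16:72873488-72874062, 210626 bp from the gene start, held 188 and 158 scaled reads in mdx, against 78 and 84 in wild type (log2 difference 1.08, limma, adjusted p = 0.0356). A region inside Epha3 at chr16:63793830-63794176, 70155 bp from the gene start, held 171 and 59 in mdx, against 10 and 31 in wild type (log2 difference 2.44, limma, adjusted p = 0.0342). A region inside Sema3d at chr5:12583374-12584000, 200302 bp from the gene start, held 316 and 148 in mdx, against 57 and 87 in wild type (log2 difference 1.61, limma, adjusted p = 0.0269). In the Epha3 and Sema3d regions mdx replicate 1 was more than 2 times mdx replicate 2, while in the Robo1 region the replicates were close. The promoters of these 3 genes did not pass.

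Sema3d, Sema3a and Sema3c lie in this order within 5.19 Mb of chromosome 5, and the stretch between the Sema3d and the Sema3c region was examined after their values were seen. It held 50 tested regions, of which 11 rose and 0 fell, among them the region inside Sema3d given above. Without the 3 semaphorin regions, 10 of 47 rose, 21.3%, where 3.97% of the regions on chromosome 5 and 4.65% of all distal regions did. Some of those that rose reached the filter value of 10 in mdx libraries only, so they were tested only because mdx was high. The region at chr5:16725902-16726183, for example, held 73 and 21 in mdx, against 2 and 1 in wild type. The stretch was chosen by its values, so these shares are not a test of it. The promoter of Pclo, a scaffold protein of the presynapse, rose with 281 and 344 scaled reads in mdx, against 122 and 106 in wild type (log2 difference 1.44, limma, adjusted p = 0.00833). The promoter of Hgf, the ligand of Met and an activator of satellite cells, held 53 and 48 in mdx, against 15 and 28 in wild type (log2 difference 1.26, limma, adjusted p = 0.111). The promoter of Cacna2d1, a calcium channel subunit, lay the other way with 451 and 496 in mdx, against 687 and 638 in wild type (log2 difference -0.48, limma, adjusted p = 0.0979). In all 9 distal regions of the stretch that rose, mdx replicate 1 was the highest of the 4 libraries, as it was in 84.2% of the 1017 distal regions that rose anywhere. The count of regions that rose in the stretch was 4 with no filter on low values and 0 with any 1 library left out.

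**Figure D4:**
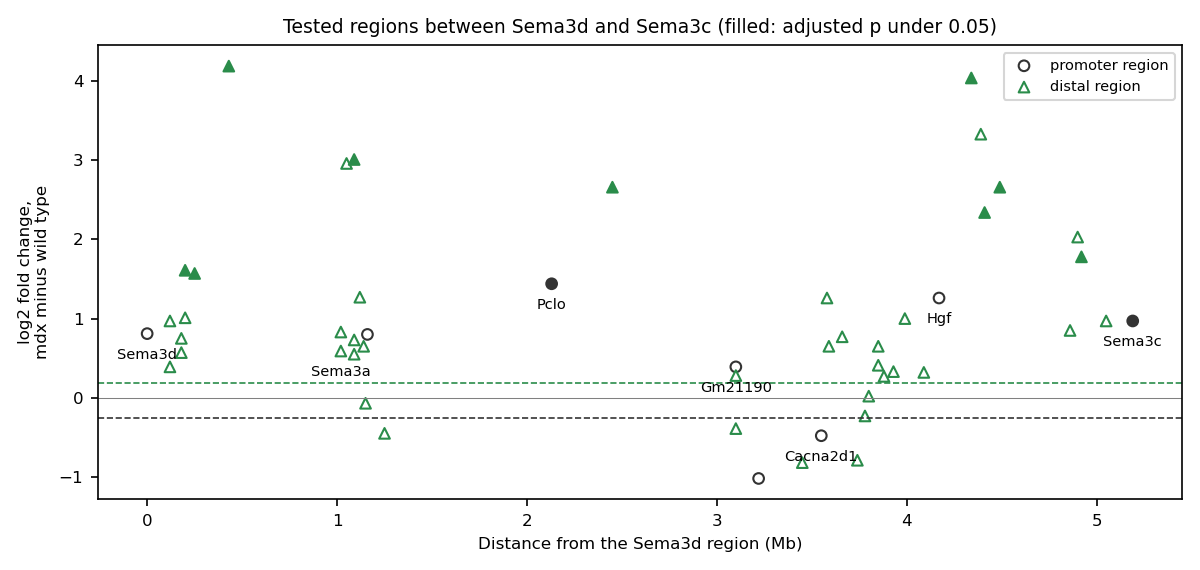
Log2 difference between mdx and wild type (mdx minus wild type, vertical axis), of the 50 tested regions between Sema3d and Sema3c on chromosome 5, by distance from the Sema3d region (horizontal axis, Mb), with the genes of the linked regions named. Filled symbols are the 11 regions that rose, and dashed lines mark the medians of all tested distal regions (0.19) and promoters (-0.25).

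Other genes of the pathway were read from a list of 98 genes, made of co-receptors, cytoplasmic transducers and regulators of small GTPases. Promoter regions were tested for 72 of them, 73 regions, of which 1 rose, 4 fell and 68 did not pass, 6.85%, against 2.42% of all tested promoters. The list was chosen with earlier results of these data known, so this share is not a test of the pathway. Their median log2 difference was -0.35. Arhgef28, an exchange factor that activates small GTPases, fell, with 37 and 64 scaled reads in mdx, against 170 and 102 in wild type (log2 difference -1.42, limma, adjusted p = 0.0437). Arhgef7, an exchange factor for Rac and Cdc42, fell, with 44 and 53 in mdx, against 142 and 98 in wild type (log2 difference -1.27, limma, adjusted p = 0.0405). In both genes the mdx libraries lay below both wild type libraries, as in 43.5% of all tested promoters. Met, a receptor that associates with B-type plexins, also fell, with 265 and 352 in mdx, against 627 and 542 in wild type (log2 difference -0.93, limma, adjusted p = 0.0231). Dpysl3, a collapsin response mediator, rose, with 169 and 127 in mdx, against 15 and 30 in wild type (log2 difference 2.73, limma, adjusted p = 0.00571).

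Other transducers of the pathway did not pass. Fyn, a kinase downstream of plexins, held 463 and 548 in mdx, against 817 and 593 in wild type (log2 difference -0.47, limma, adjusted p = 0.16). Srgap1, which acts below Robo receptors, held 97 and 123 in mdx, against 148 and 161 in wild type (log2 difference -0.50, limma, adjusted p = 0.257). Neither Fyn nor Srgap1 overlapped between groups. Of all tested promoters, 43.5% likewise had both mdx libraries below both wild type libraries. Rac1 held 97 and 95 in mdx, against 166 and 91 in wild type, and overlapped. Farp2, which acts below A-type plexins, held 283 and 236 in mdx, against 279 and 252 in wild type, and overlapped. Cdc42 had 2 weak promoter regions, at -1.39 and 0.08 (limma, adjusted p = 0.281 and 0.943). With distal medians set equal, 32 of the 73 pathway promoters passed, and with any 1 library left out, 0 did (limma).

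Several axon guidance genes are also used by endothelial, nerve-associated and connective tissue cells. Of 7 endothelial markers, 1 had a tested promoter, Tek, with 152 and 131 scaled reads in mdx, against 131 and 146 in wild type, and the defining markers Pecam1 and Cdh5 had 0 tested promoters. Of 7 macrophage and leukocyte markers, 0 had one. Of 6 Schwann cell and glial markers, 1 had, Erbb3, with summed values of 31 and 87 in mdx, against 61 and 47 in wild type. The 4 fibro-adipogenic markers of 7 with a tested promoter summed to 206 and 227 in mdx, against 113 and 152 in wild type. Their sum was higher in both mdx libraries, as Sema3c, Sema3d and Sema3a were, but 0 of the 4 passed (limma). Osr1 held 88 and 100 in mdx, against 37 and 46 in wild type, and Col3a1 76 and 78, against 42 and 56. Col1a1 and Dcn had log2 differences of 0.22 and 0.02, and the defining marker Pdgfra had 0 tested promoters. The part of fibro-adipogenic cells in the values of these semaphorins was not tested. Of 6 pericyte and smooth muscle markers, 3 had a tested promoter, with sums of 467 and 404 in mdx, against 444 and 462 in wild type. The 1 myonuclear marker of 6 with a tested promoter, Casq1, rose, with 97 and 70 in mdx, against 24 and 31 in wild type (limma, adjusted p = 0.0344). Satellite cell markers had 7 of 10 genes with a tested promoter, with sums of 1118 and 1145 in mdx, against 1485 and 1338 in wild type. Their 8 promoter regions had a median log2 difference of -0.27, against -0.25 for all tested promoters, and 0 passed (limma). Of the 8, 7 had log2 differences below 0. Calcr had the lowest, with 170 and 178 in mdx, against 346 and 254 in wild type (log2 difference -0.77, limma, adjusted p = 0.0667). Spry1 held 158 and 178 in mdx, against 260 and 213 in wild type. In Calcr and Spry1 both mdx libraries lay below both wild type libraries, as in 43.5% of all tested promoters. Pax7 overlapped, with 90 and 103 in mdx, against 93 and 124 in wild type.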

How the data were processed

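The members and gene lists were chosen with earlier results of these data known. The submitters' processing notes name build mm10 and the tools MACS2 2.1.0, STAR 2.5.3a, Trimmomatic 0.33 and Picard 2.9.0, with DESeq and DESeq2. The sources used here do not say what each tool did, how duplicate reads and the Tn5 shift were handled or how regions were merged. The deposited unit is taken as a score, since the values look like whole reads per region, scaled by the authors with a library factor and then rounded. The factors were estimated from whole numbers that never occur, or that recur too often, as 1.382 and 1.162 in mdx and 1.222 and 0.492 in wild type. Dividing by them gave the reads in listed regions, which are not library totals.

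The values were tested as log2(value + 1) with limma 3.58.1 in R 4.3.3 (intensity trend, group as the only term, Benjamini-Hochberg over 33161 regions), so fold changes of low regions are understated. The test was also run on simulated data in which all regions shared the same spread beyond counting error, taken from strong regions. The simulation had no shift of promoters against distal regions, so it does not show how the test behaves under such a shift. Regions are printed as the file gives them; whether region starts count from 0 or 1 is not stated. The distance between a region's centre and the gene start is as deposited. Of 70 RefSeq protein-coding symbols that fit the rule, 49 had a linked region. The other 21, among them Dcc, Robo4, Slit3, Sema3e, Sema4d, Sema6d and Ephb2, were not analysed here. On the pathway list, Rhoa, Dpysl2 and Crmp1 had 0 tested promoters. 1 gene of that list that passed is counted but not reported here by name.

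Values of each library are given for regions that passed, the 5 highest and 5 lowest log2 fold changes, the 2 strongest promoters per kb of each family, and genes fixed by name. Unc5c, Efnb1, Efnb2 and other regions were added after their values were seen, as was the chromosome 5 stretch. Alternatives covered scaling, filter, pseudocount, threshold, promoter window, replicate block, voom weights and left-out libraries.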

Additional observations from a re-analysis of the deposited data

How the results depend on the processing

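Against the 3 axon guidance regions of 58 that passed, the count was 6 at a threshold of 0.1, 5 with equal totals, 7 with distal medians set equal, 7 with cyclic loess, 0 with no filter on low values (11 at an unadjusted p under 0.05), 6 of the 42 that had a mean value of at least 50, 6 with a pseudocount of 10, and 5 with voom weights. Over the whole table, against 1387, it was 3372 at the 0.1 threshold, 4687 with distal medians set equal, 2245 with cyclic loess, 458 with no filter and 2203 with a pseudocount of 10. On the pathway list, against 5, it was 9 at the 0.1 threshold, 32 with distal medians set equal and 2 with no filter. The share of higher calls over the whole table was 78.9%, and 26.1% with distal medians set equal and 92.0% with promoter medians set equal, settings that moved the median of all regions to -0.35 and 0.19. Among the axon guidance regions these settings gave 0 higher and 7 lower, and 3 higher and 1 lower.

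With the replicate block, 6 axon guidance regions passed (2761 over the table). Same-numbered libraries deviated from their group means with a correlation of -0.109, so the numbers are not taken to pair them. With crossed pairing, chosen after seeing the data, 8 axon guidance regions, 25 pathway promoters and 5461 regions passed.

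The median of the axon guidance promoters, -0.16, was -0.13 with the 0.5 kb window, -0.18 with equal totals, 0.04 with promoter medians set equal, -0.49 with distal medians set equal, -0.09 with cyclic loess, -0.09 with a mean of at least 50, -0.14 with a pseudocount of 10, -0.11 with voom weights and -0.20 to -0.14 without 1 library. The distal median, 0.16, was -0.17 with distal medians set equal, 0.36 with promoter medians set equal, 0.32 with a mean of at least 50 and 0.09 with the 0.5 kb window. Leaving out any 1 library leaves 1 library in a group, which is then assumed to vary like the others, and then 0 members, 0 pathway promoters and 0 regions in all passed (limma), with 5 to 8 members and 2305 to 5569 regions at an unadjusted p under 0.05. The distal median was then 0.05 to 0.15.

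The log2 differences of some named regions changed sign. With promoter medians set equal, Ephb3 was 0.14, Unc5b 0.09, Neo1 0.11 and Sema6a 0.01. With distal medians set equal, Robo1 was -0.31, Plxna1 -0.20, Ephb1 -0.27 and Epha3 -0.08. With cyclic loess, Ephb3 was 0.18 and Neo1 0.03. Without 1 library, Epha3 ran from -0.04 to 0.55, Ephb1 from -0.14 to 0.28, Ephb3 from -0.18 to 0.06, Neo1 from -0.19 to 0.02, Ntn1 from -3.08 to 0.16, Plxna1 from -0.30 to 0.57, Robo1 from -0.05 to 0.10, Slit2 from -1.37 to 0.03 and Unc5b from -0.22 to 0.01. For counts and medians the cause of a change was not tested.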
